A study of Mus musculus with 12 samples.

Results

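The comparison described here sets the bone marrow of infarcted mice against that of sham-operated mice, averaged over 2 treatments. It used the 4 group means of all 12 libraries of the series, taken as the mean of MI and MI-E minus the mean of Sham and Sham-E. Bone marrow of the C57BL/6N strain was profiled by RNA sequencing in 3 libraries of each group. Sham mice had the sham operation and MI mice an infarct, with ligation of the LAD, a coronary artery, in the labels' protocol. Sham-E and MI-E mice had the same operations and were given EMPA. The dose of EMPA, the time after surgery and the age of the mice are not stated in the labels. The labels do not tie libraries to individual mice, so p-values measure only the spread between these samples, which may be technical. Libraries are named by group and the number in their column name.

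The marrow makes granulocytes, monocytes, red cells, platelets and B cells from a small pool of stem cells. After a myocardial infarction it is known to send neutrophils and monocytes to the heart, while lymphocyte production is known to be sensitive to stress hormones such as glucocorticoids. Interferon-induced genes such as the Ifit and Mx families are switched on by the STAT and IRF transcription factors and mark a resting or activated antiviral state. In whole marrow, fewer cells of a type and less RNA per cell cannot be told apart.

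Libraries held 21175087 to 24606783 counts, and 15119 of 53801 genes were tested. Levels are CPM, counts scaled to a common library size, differences are log2 fold changes ± standard error, infarcted minus sham, and a gene was called at a Benjamini-Hochberg adjusted p under 0.05 in the quasi-likelihood test of edgeR. Marrow markers were high in every library, with Mpo, a granule enzyme of granulocyte precursors, at 1217 to 4509 CPM, while Myh6 and Nppa of heart muscle were at most 0.0865 CPM. The mean correlation of log2 CPM with the other libraries of its group was lowest in Sham-E 1, at 0.952. Within MI it was lowest in MI 3, at 0.954, beside 0.959 in MI 2 and 0.966 in MI 1. In the levels of some gene lists a pair of libraries, Sham-E 1 and MI 2, stood apart from their groups. Sham-E 1 had low mean levels of early B-cell, erythroid and interferon genes, and the mean level of the interferon list in MI 2 was within the Sham range. Gene by gene, MI 2 was below the Sham range for 17 of 39 interferon genes, inside it for 9 and above it for 13, and below it for 22 of 25 early B-lineage genes. Sham-E 1 was inside the MI-E range for 15 of the interferon genes, below it for 15 and above it for 9, and below it for 21 of the early B-lineage genes. In these genes Sham-E 1, and in part MI 2, went against their labels. Both are used as labelled, their labels are in doubt, and a wrong label and a difference between samples of 1 group cannot be told apart here. Mean insert lengths recovered from the tables were 286 ± 1.60 bp in Sham, 264 ± 0.993 in MI, 277 ± 5.08 in Sham-E and 281 ± 1.24 in MI-E (SD, n = 3). Without EMPA all MI libraries (263.3 to 265.2 bp) were below all Sham libraries (284.1 to 286.9), so insert length and infarction cannot be told apart there. Under EMPA the difference had the opposite sign and was smaller than the Sham-E SD, with Sham-E 3 lowest at 271.2 bp. MI 2 lay with MI by insert length, at 263.8 bp, and had the highest share of mitochondrial counts, 3.58% beside 1.49% to 1.67% in Sham. Sham-E 1, at 280.3 bp, was inside the MI-E range and near Sham-E 2 at 279.6.

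Averaged over both treatments, 43 genes differed between infarcted and sham marrow, 0.284% of those tested. Of these, 21 were higher (0.139%) and 22 lower (0.146%) in the infarcted groups. The split was 23 higher and 279 lower when limma was run on log2(TPM + 1), a scale on which the median of all genes moved to -0.15. Genes were counted as shared when they were called on average and every infarcted library lay on the same side of every sham library within each treatment. This held for 32 genes, 0.212% of those tested, with 16 higher and 16 lower. Of the remaining 11 called genes, 10 overlapped between sham and infarcted libraries in 1 treatment, and Hist1h2bn moved in opposite directions without overlap. The pair of treatment-specific contrasts, which have no library in common, called 63 genes for MI against Sham (0.417%) and 0 for MI-E against Sham-E (0%). For the latter, 2031 genes had an unadjusted p under 0.05 in edgeR, DESeq2 called 212 and limma-voom 0.

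The averaged calls depended strongly on single libraries. Without Sham-E 1 there were 1616 calls and without MI 2 there were 1421, and all 32 shared genes were among them in both cases. Without both of these libraries, whose labels are in doubt, there were 3095, a fit chosen after seeing the data. Leaving out another library gave far fewer, with 1 call without Sham 1, 2 without Sham 3, 1 without Sham 4, 1 without Sham-E 2 and 1 without Sham-E 3. The count was 7 without MI 1, 12 without MI 3, 0 without MI-E 2, 0 without MI-E 3 and 4 without MI-E 4. All 43 genes kept their direction in each of these 12 fits. They were chosen on the same libraries, so this was largely set in advance and is no further evidence. Sham-E 1 was the Sham-E library nearest the infarcted level for 24 of the 32 shared genes (75%), and MI 2 was the MI library nearest the sham level for 24 (75%). Over the 450 genes without overlap in the same direction in both treatments, called or not, these shares were 52.2% and 68%.

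**Figure D1:**
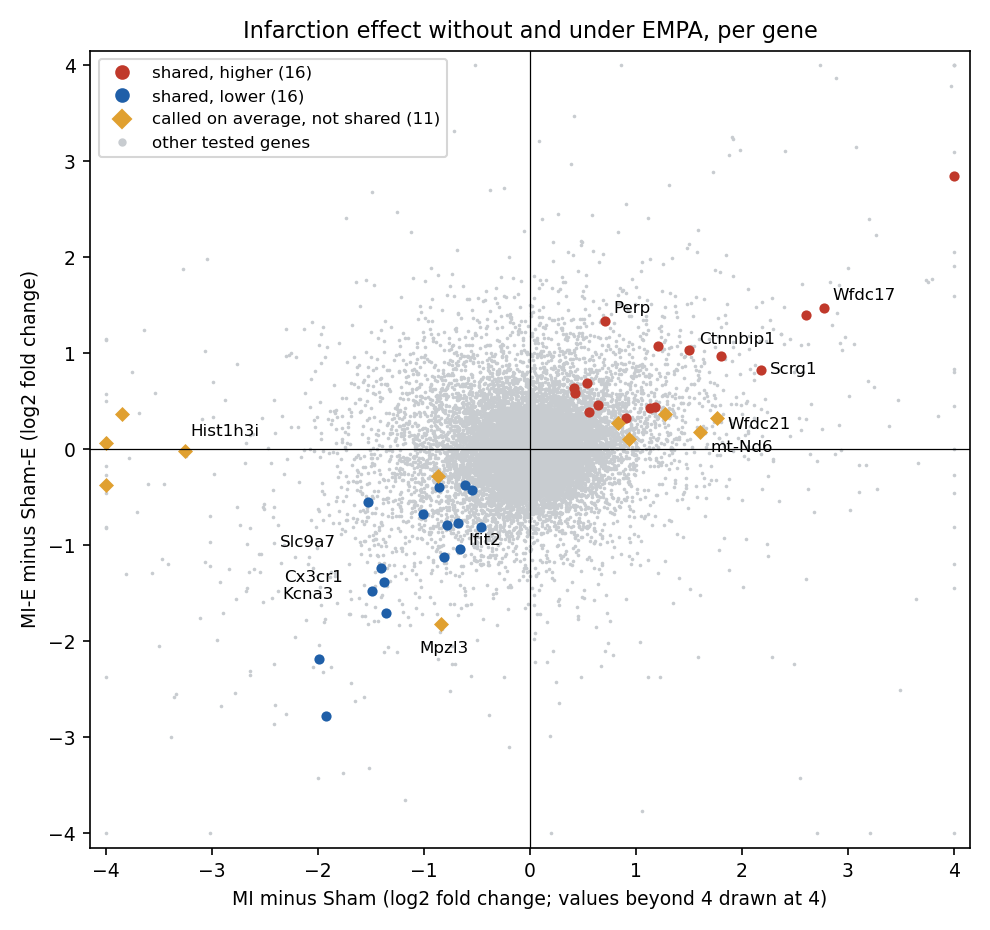
Log2 fold change of each tested gene for MI minus Sham (horizontal axis) and MI-E minus Sham-E (vertical axis), with values beyond 4 drawn at 4. The 16 shared genes that were higher sit in the upper right, the 16 that were lower in the lower left, and most of the 11 called genes that are not shared lie near the horizontal axis.

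Over all tested genes the infarction effects of the 2 treatments were weakly alike. The log2 fold changes had the same sign for 8229 genes, 54.4% of those tested, and correlated across genes at a Pearson r of 0.20 and a Spearman rho of 0.15. Genes are not independent replicates and these values are a description. Without any test, 450 genes (2.98%) did not overlap between infarcted and sham libraries within either treatment and moved the same way, 248 of them higher (1.64%) and 202 lower (1.34%). A further 234 genes (1.55%) did not overlap within either treatment and moved in opposite directions. In either direction, 4123 of the 15119 tested genes were without overlap between MI and Sham, and 3606 between MI-E and Sham-E. The 450 genes were 10.9% of the first and 12.5% of the second. These shares were not tested against those of unrelated contrasts, so they show no likeness between treatments by themselves.

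Genes of myeloid cells and of cell surface receptors were among the shared genes that rose. Wfdc17 (chr11:83703991-83706268 on mm10), a small secreted whey acidic protein made by activated myeloid cells, had 17.7, 20.1 and 26.5 CPM in Sham and 163, 158 and 118 in MI. It had 91.7, 21.7 and 24.1 in Sham-E and 108, 171 and 102 in MI-E. Every infarcted library was above every sham library, and Sham-E 1 stood closest to the infarcted range. The averaged increase was 2.12 ± 0.35 (edgeR adjusted p = 0.0446).

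Fpr2 (chr17:17887824-17893952) encodes a formyl peptide receptor with which neutrophils and monocytes sense bacterial and mitochondrial peptides. Its levels were 172, 139.8 and 129 CPM in Sham, 404, 365 and 230.2 in MI, 199, 179.8 and 149 in Sham-E and 225, 260.1 and 232 in MI-E. The groups did not overlap within either treatment, and the rise was 0.81 ± 0.14 on average (edgeR adjusted p = 0.0446). The effect was 1.18 without EMPA and 0.44 under it, with an unadjusted interaction p of 0.0224 in edgeR that did not survive adjustment. Its neighbour in function Fpr1 had an averaged effect of 0.47 ± 0.11 that missed the threshold (edgeR adjusted p = 0.0681).

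Relt (chr7:100845847-100863446), a member of the tumour necrosis factor receptor family found on blood cells, was at 79.8, 77.1 and 77.9 CPM in Sham and 112, 88.8 and 112 in MI. With EMPA it was at 74.5, 67.2 and 75.4 in Sham-E and 112, 107 and 118 in MI-E. Its rise of 0.53 ± 0.08 came with clear separation in both treatments, since the lowest infarcted library, MI 2, was above the highest sham library (edgeR adjusted p = 0.0389).

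Perp (chr10:18845020-18857073), a membrane protein induced by p53 and a part of desmosomes, was the shared gene with the smallest p among the genes that rose. It stood at 5.12, 5.38 and 6.08 CPM in Sham, 9.32, 8.33 and 9.37 in MI, 3.50, 4.43 and 4.0 in Sham-E and 10.7, 10.7 and 8.83 in MI-E. No library of the infarcted groups reached down to the sham range, and Sham-E 1 was the lowest library of all. The effect was 1.02 ± 0.13 (edgeR adjusted p = 0.0206), with 0.70 ± 0.18 for MI against Sham and 1.34 ± 0.19 for MI-E against Sham-E.

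Ctnnbip1 (chr4:149518236-149566437), also called ICAT, binds beta-catenin and keeps it from its TCF partners. It was measured at 10.2, 11.2 and 10.9 CPM in Sham, 35.1, 17.8 and 38.4 in MI, 18.2, 10.3 and 8.26 in Sham-E and 24.6, 29.4 and 21.2 in MI-E. MI 2 had the lowest infarcted level and was below Sham-E 1, although within each treatment the groups were apart. The rise was 1.27 ± 0.22 (edgeR adjusted p = 0.0446).

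Scrg1 (chr8:57455923-57477585), scrapie responsive gene 1, encodes a small secreted protein. It was at 4.18, 5.33 and 5.76 CPM in Sham, 29.2, 10.5 and 29.7 in MI, 10.98, 5.98 and 5.29 in Sham-E and 13.96, 13.96 and 11.6 in MI-E, a rise of 1.51 ± 0.26 (edgeR adjusted p = 0.0446). The highest sham library was Sham-E 1 and the lowest infarcted library was MI 2.

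Another 5 shared genes that rose serve mitochondria and translation. Ndufa8 (chr2:36036326-36049406), a subunit of respiratory complex I, was at 34.1, 33.9 and 32.6 CPM in Sham, 54.9, 47.5 and 54.8 in MI, 40.8, 33.9 and 32.9 in Sham-E and 53.1, 47.1 and 47.8 in MI-E. Sham-E 1 was the highest sham library and below all infarcted ones, and the increase was 0.55 ± 0.09 (edgeR adjusted p = 0.0389). Cox5b (chr1:36691449-36693681), a subunit of cytochrome c oxidase, was at 47.8, 53.1 and 44.8 CPM in Sham, 71.2, 58.7 and 66.1 in MI, 58.9, 54.98 and 52.3 in Sham-E and 86.03, 88.3 and 75.4 in MI-E. All MI-E libraries were above all other libraries, and the averaged rise was 0.51 ± 0.09 (edgeR adjusted p = 0.0425).

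Rpl35a (chr16:33056453-33060189) encodes a component of the ribosome's large subunit, and its levels were 197, 231 and 204 CPM in Sham, 469, 349 and 565 in MI, 234, 232 and 288 in Sham-E and 316, 387 and 316 in MI-E. The effect was 1.13 ± 0.18 without EMPA and 0.43 ± 0.18 under it, which gave 0.78 ± 0.13 on average (edgeR adjusted p = 0.0389). Eif3i, a subunit of the initiation factor that loads the small ribosomal subunit, rose by 0.47 ± 0.08 (edgeR adjusted p = 0.044). Mpv17l2, an inner membrane protein needed for assembly of mitochondrial ribosomes, rose by 0.61 ± 0.10 (edgeR adjusted p = 0.0428). In both genes every infarcted library was above the sham range of its treatment, with MI 2 the lowest MI library for each.

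**Figure D2:**
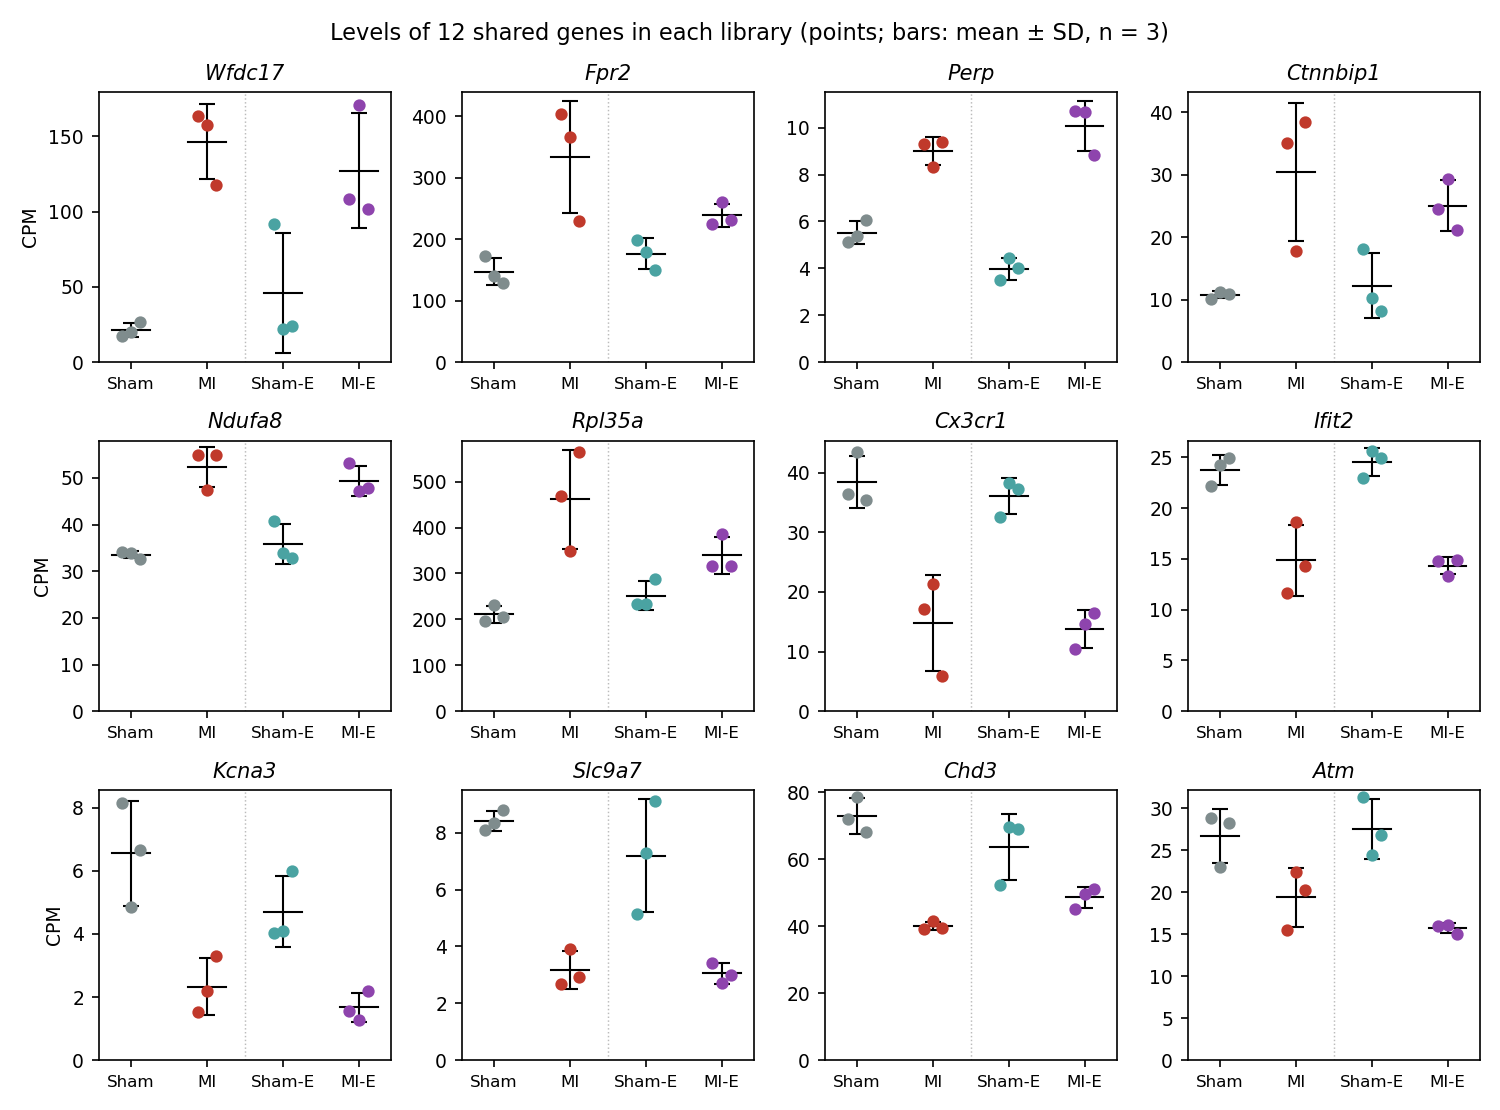
CPM of 12 shared genes in each library (points), with the mean and SD of the 3 libraries of each group; each vertical axis starts at 0. The 6 genes that rose (Wfdc17 to Rpl35a) and the 6 that fell (Cx3cr1 to Atm) separate infarcted from sham libraries on both sides of the dotted line between treatments.

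Cx3cr1 and Ifit2 were among the shared genes that fell. Cx3cr1 (chr9:119901616-120069879), the fractalkine receptor of patrolling monocytes and macrophages, was at 36.4, 43.5 and 35.4 CPM in Sham and 17.2, 21.4 and 5.87 in MI. Under EMPA it was at 32.6, 38.3 and 37.2 in Sham-E and 10.4, 14.6 and 16.5 in MI-E. The sham libraries of both treatments, Sham-E 1 among them, lay far above every infarcted library. The decrease was -1.38 ± 0.25 (edgeR adjusted p = 0.0496), with -1.37 and -1.38 in the 2 treatments. Of the 18 genes of the monocyte list, 13 had positive and 5 negative averaged values. Their median was 0.10, with 0.14 without EMPA and -0.04 under it, and it turned to -0.08 on log2(TPM + 1).

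Ifit2 (chr19:34550694-34576419), an interferon-induced protein that binds RNA and restricts viral translation, was at 22.1, 24.3 and 24.9 CPM in Sham and 11.6, 18.6 and 14.3 in MI. It was at 22.96, 25.6 and 24.9 in Sham-E and 14.8, 13.3 and 14.9 in MI-E. MI 2 was below the Sham range and Sham-E 1 above the MI-E range, and the groups overlapped in neither treatment. This held for 2 of the 39 tested interferon genes, beside 1.34% of all tested genes lower without overlap in both treatments. Its change was -0.73 ± 0.12 (edgeR adjusted p = 0.0389).

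Kcna3 (chr3:107036169-107038070), a voltage-gated potassium channel of lymphocytes, and its neighbour AI504432 (chr3:107039504-107054347), a long noncoding RNA, both fell. Kcna3 was at 8.15, 4.84 and 6.67 CPM in Sham, 1.51, 2.18 and 3.31 in MI, 4.02, 4.08 and 6.0 in Sham-E and 1.56, 1.29 and 2.18 in MI-E, an effect of -1.49 ± 0.24 (edgeR adjusted p = 0.0389). AI504432 was at 27.6, 21.6 and 22.6 CPM in Sham, 11.4, 19.8 and 14.3 in MI, 19.03, 24.3 and 27.7 in Sham-E and 10.7, 13.1 and 10.7 in MI-E, an effect of -0.85 ± 0.15 (edgeR adjusted p = 0.0446). In both genes MI 2 or MI 3 was the highest infarcted library, and no infarcted library reached the sham range of its treatment.

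Slc9a7 (chrX:20105754-20291807), a sodium-proton exchanger of the Golgi, had the smallest p among named genes that fell. Its levels were 8.10, 8.33 and 8.81 CPM in Sham, 2.69, 3.92 and 2.91 in MI, 5.15, 7.30 and 9.11 in Sham-E and 3.43, 2.72 and 3.0 in MI-E. Sham-E 1 was the lowest sham library and still above all infarcted ones, and the change was -1.32 ± 0.18 (edgeR adjusted p = 0.0212). It was -1.41 ± 0.25 without EMPA and -1.23 ± 0.25 under EMPA.

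A further pair of shared genes that fell acts in the nucleus on chromatin and DNA damage. Chd3 (chr11:69343273-69369406), a remodelling subunit of the NuRD complex, was at 71.96, 78.6 and 68.1 CPM in Sham, 39.2, 41.5 and 39.6 in MI, 52.2, 69.5 and 68.9 in Sham-E and 45.05, 49.6 and 51.1 in MI-E. The gap was wide without EMPA and narrow under it, where Sham-E 1 was just above the highest MI-E library, and the averaged change was -0.63 ± 0.09 (edgeR adjusted p = 0.0322). Atm (chr9:53439149-53536740), the kinase that answers DNA double-strand breaks, was at 28.8, 22.98 and 28.2 CPM in Sham, 15.5, 22.4 and 20.2 in MI, 31.4, 24.4 and 26.7 in Sham-E and 16.03, 16.1 and 15.1 in MI-E. Here the gap was the narrow one without EMPA, where MI 2 was just below Sham 3, and the change was -0.63 ± 0.12 (edgeR adjusted p = 0.0496). Zfhx2, a zinc finger homeobox protein, fell with -1.04 ± 0.19 (edgeR adjusted p = 0.0496).

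Among enzymes, transporters and signalling proteins, 4 more named genes fell in both treatments. Inppl1, a lipid phosphatase of insulin and growth factor signalling, changed by -0.84 ± 0.12 (edgeR adjusted p = 0.0267), from 15.3 to 24.1 CPM over the sham libraries to 9.18 to 12.9 over the infarcted ones. B3gnt2, which builds polylactosamine chains on glycoproteins, changed by -0.49 ± 0.08 (edgeR adjusted p = 0.0425). Of its exon bases 66% overlap another annotated gene, Gm28048, so its counts are uncertain. Psd3, an exchange factor for the small GTPase Arf6, and Nipal3, a membrane protein of the NIPA magnesium transporter family, changed by -0.79 and -0.48.

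Some shared genes fell outside the naming rule by symbol or by low level and are named after their values were seen. Bcat1, the cytosolic branched-chain aminotransferase, was at 4.78, 4.10 and 6.08 CPM in Sham, 0.504, 1.73 and 1.53 in MI, 1.08, 5.36 and 3.20 in Sham-E and 0.761, 0.667 and 0.683 in MI-E (change -2.09 ± 0.38, edgeR adjusted p = 0.0496). Gm26790, annotated as a lincRNA, had 0 counts in all Sham libraries and 3.74, 4.96 and 1.78 CPM in MI, at least 85.2-fold above the level that 3 counts over the Sham group would give. It had 0.0432, 0.388 and 0.622 CPM in Sham-E and 2.71, 3.81 and 1.14 in MI-E. Of its exon bases 83.5% overlap Zfp507, and those of Gm26649, which rose by 1.14, overlap Klf7 in full, so the counts of both are uncertain. The others were 2010107E04Rik, AC155729.1 and Gm16201, which rose, and Gm9821, Gm6545 and Gm4759, which fell. The last pair is annotated as pseudogenes, whose reads may come from near copies.

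Effects of the 32 shared genes were compared between treatments through the interaction. None was called, with a smallest adjusted interaction p of 0.261 in edgeR, while 8 of the 32 had an unadjusted interaction p under 0.05. Over all genes the interaction called 1 gene (0.00661%), B430305J03Rik, which is not shared, and 2042 genes had an unadjusted p under 0.05. DESeq2 called 167 and limma-voom 0. The increase was larger without EMPA for 12 of the 16 shared genes that rose, with medians of 1.16 without EMPA and 0.76 under EMPA. Of the 16 that fell, 7 changed more without EMPA, and the medians were -0.94 and -0.92.

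Most called genes that were not shared overlapped between Sham-E and MI-E. Wfdc21, a neutrophil granule protein of the same whey acidic family as Wfdc17, was at 174, 182 and 193 CPM in Sham, 712, 667 and 482 in MI, 371, 222 and 267 in Sham-E and 298, 463 and 318 in MI-E. Sham-E 1 lay inside the MI-E range, and the effect was 1.76 without EMPA and 0.33 under it. A pair of genes of the mitochondrial genome, mt-Nd1 and mt-Nd6 of complex I, rose by 0.82 and 0.89 on average. Their effects were 1.27 and 1.61 without EMPA against 0.37 and 0.18 under EMPA.

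A pair of replication-dependent histone genes of the same group, Hist1h3i and Hist1h2bn, had MI levels at most 0.336 CPM, and Sham levels of 1.49 CPM or more. Under EMPA their effects were -0.02 and 0.37, and for Hist1h2bn every MI-E library was above every Sham-E library. Hdac7, a class IIa histone deacetylase, had -0.87 without EMPA and -0.28 under it. Creb3, a membrane-bound transcription factor of the secretory pathway, had 0.83 and 0.27, and Samsn1, an adaptor of haematopoietic cells, had 0.94 and 0.10. Mpzl3, a membrane protein, overlapped in the groups without EMPA instead. It was at 9.04, 12.5 and 10.5 CPM in Sham, 4.66, 9.12 and 4.14 in MI, 8.91, 13.4 and 14.9 in Sham-E and 2.96, 4.10 and 3.46 in MI-E, with MI 2 just above Sham 1. Its averaged change was -1.33 ± 0.22 (edgeR adjusted p = 0.0389). The antisense transcript Gm20402 overlaps Foxo1 in 98.1% of its exon bases and had 3 counts in MI against 234 in Sham, a ratio of 0.0146 with an exact 95% interval of 0.00298 to 0.0431 for counting error only. It and B430305J03Rik are named after their values were seen.

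Gene lists were described by their counts and medians, beside 21 higher and 22 lower calls and a median of 0.01 over all 15119 genes. Of all these genes, 1605 had an unadjusted p under 0.05 in edgeR for an increase and 1471 for a decrease, 20.3% together. The interferon list held 39 tested genes, all with a negative averaged log2 fold change. Of these, 36 were negative in both treatments, beside 25.8% of all tested genes, 29 had an unadjusted p under 0.05 and 1, Ifit2, was called. The median was -0.73 on average, -0.53 for MI against Sham and -0.96 for MI-E against Sham-E.

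The values of Mx2, Oasl1 and Ifit3, which were not called, show where Sham-E 1 lay. Mx2, a dynamin-like antiviral GTPase, was at 4.39, 4.84 and 4.01 CPM in Sham, 1.39, 2.28 and 0.839 in MI, 0.951, 5.51 and 3.51 in Sham-E and 0.888, 1.19 and 0.91 in MI-E. Oasl1, of the oligoadenylate synthetase family, was at 15.95, 21.01 and 16.1 in Sham, 3.82, 9.67 and 5.97 in MI, 5.97, 19.1 and 20.3 in Sham-E and 5.67, 7.72 and 7.69 in MI-E. Ifit3 was at 9.60, 15.9 and 12.9 in Sham, 2.86, 6.69 and 2.37 in MI, 1.17, 18.8 and 21.4 in Sham-E and 2.33, 2.95 and 2.37 in MI-E. In each of these genes Sham-E 1 lay within or below the MI-E range while the other Sham-E libraries were above all infarcted ones. Their averaged effects were -1.65 ± 0.37, -1.28 ± 0.30 and -2.06 ± 0.55, and none passed the threshold (edgeR adjusted p = 0.0696, 0.0736 and 0.0858).

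The level of the interferon list, the mean log2 CPM of its members, was 5.09, 5.27 and 5.10 in Sham, 4.04, 5.12 and 3.97 in MI, 3.74, 5.33 and 5.44 in Sham-E and 3.83, 4.02 and 3.93 in MI-E. By this mean MI 2 was inside the Sham range, and Sham-E 1 was the lowest of all libraries. The list's median was -0.88 without Sham-E 1, -0.93 without MI 2 and -1.08 without both. Both libraries were picked for these levels, so the last value is a description and no further evidence. Whether their labels are right was not tested. With insert length as a covariate the median was -1.27.

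RefSeq promoters (build GRCm38.p6) are shown for 3 members of the interferon list, because 36 of its 39 genes had negative values in both treatments. They cover the 150 bases before the start site, 5′ to 3′ on the gene's strand, with matches to GAAANNGAA, a core of the interferon-stimulated response element, in capitals on either strand. They were chosen after the values were seen, as the members with a match in this window and the smallest p. Genes of a chromosome that was set aside were left out of this choice.
Ifit3, chr19:34583379-34583528, plus strand: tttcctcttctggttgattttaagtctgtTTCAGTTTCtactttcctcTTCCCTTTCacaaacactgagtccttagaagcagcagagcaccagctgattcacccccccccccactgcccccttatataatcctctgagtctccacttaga
Ifih1, chr2:62646256-62646405, minus strand: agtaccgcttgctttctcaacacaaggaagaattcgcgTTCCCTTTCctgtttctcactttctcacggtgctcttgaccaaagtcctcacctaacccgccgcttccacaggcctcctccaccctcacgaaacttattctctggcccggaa
Irgm1, chr11:48871421-48871570, minus strand: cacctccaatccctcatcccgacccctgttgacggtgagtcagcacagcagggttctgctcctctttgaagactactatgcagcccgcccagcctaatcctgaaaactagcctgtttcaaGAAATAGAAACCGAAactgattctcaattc

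The matches began 121 bases before the start site in Ifit3, with a second one 102 before it, 112 before it in Ifih1, and 30 before it in Irgm1, where a pair of matches overlaps. Over the 250 bases before the start, 19 of the 30 list members with a RefSeq promoter held this motif (63.3%), beside 7.88% of the promoters of all tested genes. The list is of interferon response genes and the motif is from their known element. A high share was therefore set in advance and says nothing about infarction. Ifit2 had no match in its windows, which says only that these letters are not in them. Ifih1, a cytosolic sensor of viral RNA, had an averaged effect of -0.64 ± 0.18 and Irgm1, an interferon-induced GTPase, one of -0.70 ± 0.23 (edgeR adjusted p = 0.097 and 0.122).

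Motifs of marrow factors were counted in the same windows for called genes, of which 11 of 21 that rose and 11 of 22 that fell had a RefSeq promoter. The E2A site CAGCTG was in 2 and 2 of them, beside 14.1% of all tested promoters. The EBF1 core CCCNNGGG was in 3 and 4, beside 18.2%. TTTCCCGC of E2F was in 1 and 2, beside 1.91%, and GAGGAAGT of PU.1 in 1 and 0, beside 3.24%. TTGCGCAA of C/EBP and TGACTCA of AP-1 were in none of the 22 promoters, beside 0.278% and 4.04%. The interferon motif GAAANNGAA was in none of them either, beside 7.88%.

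Early B-lineage genes had negative medians in both treatments, and no member was called. Of 25 tested genes, 21 had a negative log2 fold change in both treatments, beside 25.8% of all tested genes. For a decrease, 19 of the 25 had an unadjusted p under 0.05, beside 1471 of all 15119 tested genes. The median was -0.87, with -1.18 without EMPA and -0.56 under it. Myb, a transcription factor of progenitors and of early B cells, came nearest to the threshold and met the no-overlap rule in both treatments. It was at 266, 285 and 330.2 CPM in Sham, 147, 231 and 160.4 in MI, 204, 294 and 273 in Sham-E and 169.9, 149 and 169 in MI-E, an effect of -0.69 ± 0.13 (edgeR adjusted p = 0.0616).

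Rag1, of the recombinase that rearranges antigen receptor genes, varied widely between libraries of 1 group. It was at 126, 254 and 259.6 CPM in Sham, 23.4, 109.6 and 34.6 in MI, 1.21, 185 and 207 in Sham-E and 46.7, 36.5 and 32.6 in MI-E. All MI-E libraries were above Sham-E 1 and far below the other Sham-E libraries, so the averaged effect of -1.85 ± 0.78 was large and did not pass (edgeR adjusted p = 0.22). Pax5, the master regulator of B-cell identity, and Ikzf3, a lymphoid zinc finger factor, had -0.86 ± 0.22 and -0.66 ± 0.14 (edgeR adjusted p = 0.0807 and 0.062). Bst1, a surface enzyme of B precursors and of myeloid cells, went the other way with 0.82 ± 0.19.

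The early B-lineage level was 5.83, 6.18 and 6.11 in Sham, 4.67, 5.19 and 4.88 in MI, 3.34, 5.91 and 5.86 in Sham-E and 4.93, 4.82 and 4.76 in MI-E. Without Sham-E 1 the median effect was -1.12, and without both Sham-E 1 and MI 2 it was -1.22. With insert length as a covariate it was -1.47. Mature B cells showed less, with a median of -0.17 over 28 genes, 15 of them negative in both treatments. That median was -0.09 without Sham 3, -0.26 without Sham 4, -0.11 without MI 3 and -0.35 on log2(TPM + 1). Ms4a1, which encodes CD20, had -0.43 ± 0.24, and Cd79a, of the B-cell receptor complex, had -1.34 without EMPA and 0.12 under it.

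Plasma cell and dendritic cell lists pointed down in both treatments, each without a called gene. The plasma cell median was -0.41 over 14 genes, 10 of them negative in both treatments. Sdc1, the plasma cell surface marker syndecan-1, had -1.17 ± 0.26 and Irf4, a factor of plasma and activated B cells, had -1.14 ± 0.38 (edgeR adjusted p = 0.0681 and 0.137). The dendritic cell median was -0.54 over 14 genes, 9 of them negative in both. With insert length as a covariate these medians were -0.93 and -0.84, and the plasma cell median was -0.21 without Sham-E 3. Variable segments of the immunoglobulin heavy and light chains had medians of -0.41 over 77 and -0.47 over 78 segments. These segments are near copies of each other, so reads may be split among them. The medians were -0.72 and -0.88 with insert length as a covariate, that of the heavy chain was -0.25 without Sham-E 3, and that of the light chain was -0.73 on log2(TPM + 1).

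Glucocorticoid response genes formed the list that was higher in both treatments without overlap of its level. The level was 5.02, 5.23 and 5.29 in Sham, 5.99, 5.36 and 6.39 in MI, 5.51, 5.33 and 5.42 in Sham-E and 6.06, 5.82 and 5.87 in MI-E. MI 2 exceeded the highest Sham library only narrowly. Gene by gene, MI 2 was above the Sham range for 9 of the 24 genes, inside it for 8 and below it for 7. Of 24 tested genes, 19 were positive in both treatments, beside 28.6% of all tested genes, and none was called. For an increase, 13 of the 24 had an unadjusted p under 0.05, beside 1605 of all 15119 tested genes. The median was 0.58, with 0.88 without EMPA and 0.39 under EMPA. On log2(TPM + 1) it was 0.35.

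Mt2, a metallothionein, was at 9.13, 9.03 and 9.73 CPM in Sham, 26.9, 10.01 and 17.9 in MI, 7.39, 11.96 and 13.95 in Sham-E and 24.4, 19.3 and 24.8 in MI-E. It met the no-overlap rule in both treatments, with MI 2 just above the Sham range, and its effect of 1.01 ± 0.22 missed the threshold (edgeR adjusted p = 0.0681). Per1, a clock gene that glucocorticoids induce, was at 19.4, 40.7 and 43.8 CPM in Sham, 81.3, 41.1 and 270.1 in MI, 35.8, 43.9 and 61.9 in Sham-E and 114, 85.7 and 106 in MI-E. MI 3 was the highest library by far and MI 2 lay inside the Sham range, for an effect of 1.52 ± 0.41 (edgeR adjusted p = 0.0892). Klf13 and Nfil3, transcription factors of lymphoid and myeloid cells, had 0.68 ± 0.18 and 0.56 ± 0.15.

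**Figure D3:**
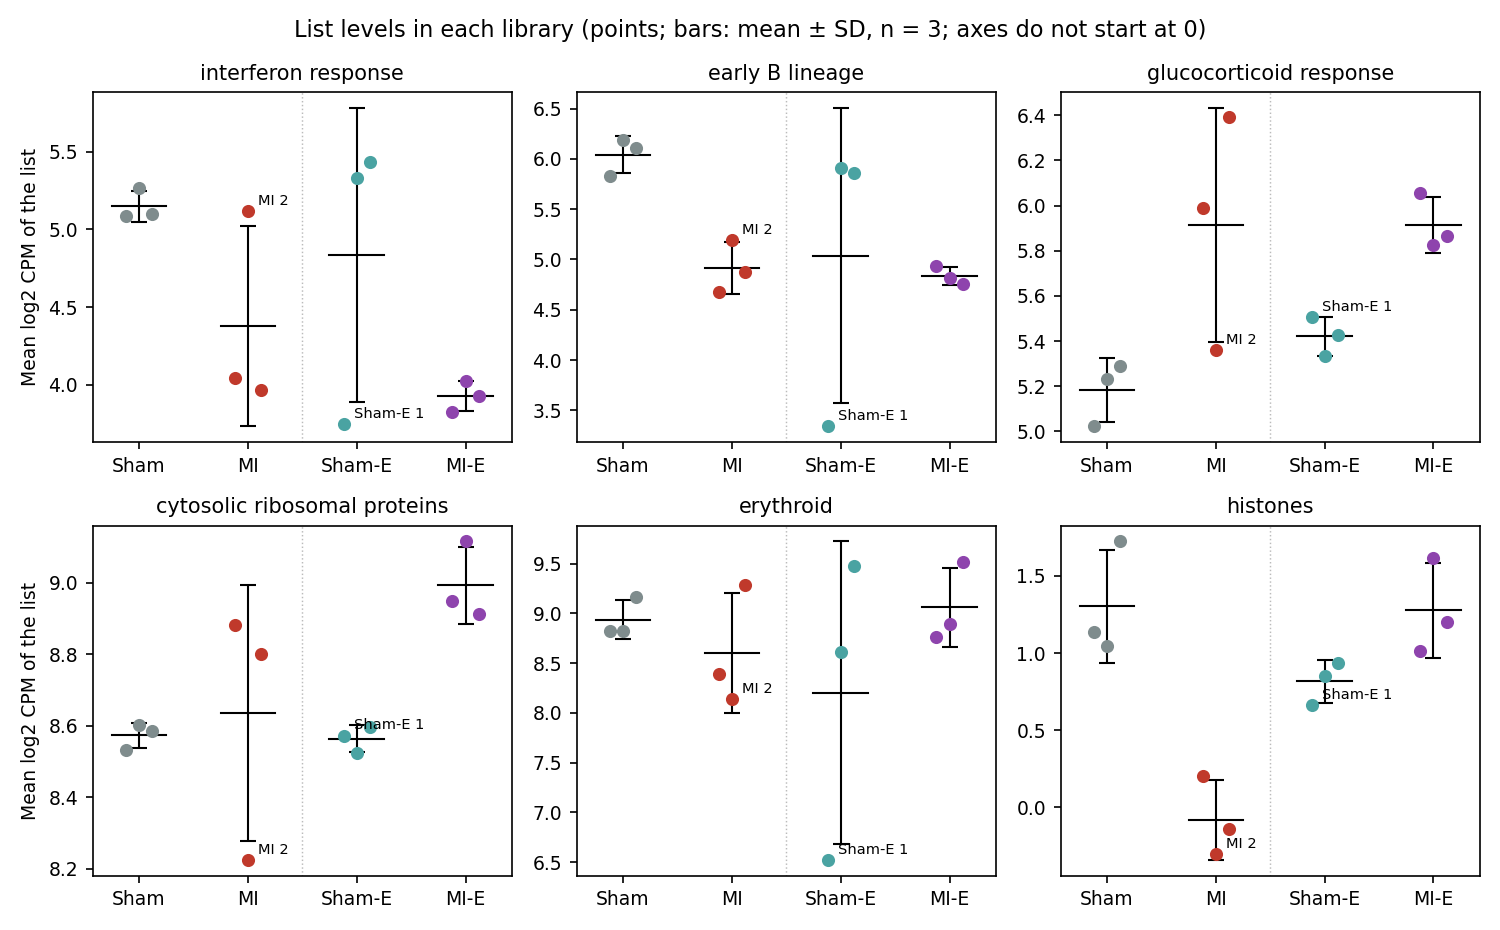
Mean log2 CPM of the members of 6 gene lists in each library (points), with mean and SD of the 3 libraries of each group; the vertical axes do not start at 0. Sham-E 1 lies with or below the infarcted libraries for interferon and early B-lineage genes, the mean level of interferon genes in MI 2 lies in the Sham range, and the glucocorticoid list is higher in every infarcted library within its treatment.

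Genes of cytosolic ribosomes and of the respiratory chain had slightly positive medians in both treatments, while MI 2 was below Sham in the level of both lists. Ribosomal protein genes have many near-identical pseudogenes, so their counts are uncertain. Of 84 tested genes of cytosolic ribosomal proteins, 56 were positive in both treatments, beside 28.6% of all tested genes. Of the 84, 9 were higher without overlap in both, beside 1.64% of all tested genes, and 1, Rpl35a, was called. The median was 0.28, with 0.12 without EMPA and 0.43 under it. The list's level was 8.53, 8.60 and 8.59 in Sham and 8.88, 8.23 and 8.80 in MI, with MI 2 the lowest of all libraries. Under EMPA the levels did not overlap. Rps6, the ribosomal protein phosphorylated by S6 kinase, was at 657, 664 and 671 CPM in Sham, 1030.3, 875 and 1285 in MI, 738, 693 and 734 in Sham-E and 836, 953 and 890.3 in MI-E. It was above the sham range in all infarcted libraries of each treatment, with an effect of 0.49 ± 0.11 (edgeR adjusted p = 0.0681). Rpl37 and Rps26, of the large and small subunit, had 0.61 ± 0.12 and 0.50 ± 0.11 and did not overlap in either treatment.

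Among 74 nuclear-encoded subunits of the respiratory chain, 46 were positive in both treatments and 13 were higher without overlap in both, beside the same 28.6% and 1.64% of all tested genes. Ndufa8 and Cox5b were called. Their median was 0.21, with 0.09 without EMPA and 0.33 under it. The list's level was 5.98, 6.02 and 6.00 in Sham and 6.22, 5.91 and 5.99 in MI, with MI 2 below the Sham range. Under EMPA the levels did not overlap. Cox8a, another subunit of cytochrome c oxidase, was at 103, 121 and 109 CPM in Sham, 169, 153 and 178 in MI, 115, 119 and 126 in Sham-E and 141, 149.8 and 135 in MI-E. Its groups did not overlap in either treatment, and the effect of 0.42 ± 0.08 missed the threshold (edgeR adjusted p = 0.0616). On log2(TPM + 1) the medians of the ribosomal and respiratory lists were 0.03 and 0.01, beside -0.15 over all genes on that scale. Proteins of mitochondrial ribosomes had a median of 0.11 over 77 genes, which turned to -0.09 on log2(TPM + 1). It was -0.02 without EMPA and 0.19 under it.

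These lists hold short transcripts, with median lengths of 638 bases for cytosolic ribosomal and 608 for respiratory genes, beside 1434 over all tested genes. The 21 called genes that rose had a median length of 700 bases and the 22 that fell one of 1844. With all genes cut into 10 classes of length, the median averaged effect went from 0.05 in the shortest class to -0.09 in the longest. The medians were 0.11 and -0.16 for MI-E against Sham-E, and -0.01 and 0.00 for MI against Sham. With offsets for GC content and length in each library there were 48 calls, which included 27 of the 32 shared genes, and the medians of the ribosomal and respiratory lists were 0.25 and 0.18. With insert length as a covariate no gene was called, and 2157 had an unadjusted p under 0.05 in edgeR. The part of transcript length in the results was not otherwise tested.

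**Figure D4:**
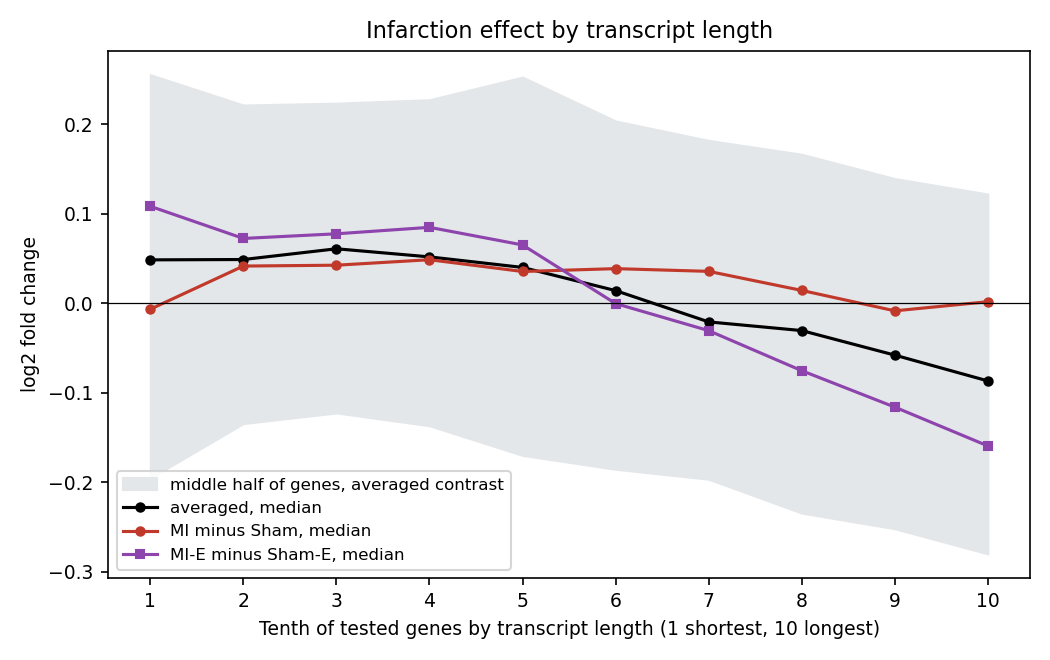
Median log2 fold change of tested genes in 10 classes of transcript length, for the averaged contrast (black, quartiles shaded), MI minus Sham and MI-E minus Sham-E. The averaged median goes from 0.05 in the shortest class to -0.09 in the longest, and that of MI-E minus Sham-E from 0.11 to -0.16.

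Lists of neutrophil genes differed in their medians, and the differences between treatments were not tested as lists. Primary granule genes, made in neutrophil precursors, had a median of -0.09 over 14 genes, 8 of them negative, with 0.05 without EMPA and -0.33 under it. That median turned to 0.11 without Sham-E 1, 0.04 without MI 3, 0.06 without Sham-E 1 and MI 2, and 0.63 with insert length as a covariate. The NADPH oxidase, which makes the oxidative burst, had a median of 0.19 over 6 genes, with 0.51 without EMPA and -0.01 under it. Its averaged median was 0.02 on log2(TPM + 1), 0.32 without Sham-E 1, 0.31 without MI 3, 0.12 without Sham-E 3, 0.12 without MI-E 3 and 0.75 with insert length as a covariate. Of 26 mature neutrophil genes, 14 were positive in both treatments and 1, Fpr2, was called. The median was 0.29, with 0.42 without EMPA and 0.13 under EMPA. Retnlg, a resistin-like protein of mature neutrophils, had 0.98 and 0.17 in the 2 treatments, and Alox5ap, of leukotriene synthesis, 1.25 and 0.31. Secondary granule genes, made in immature neutrophils, had a median of 0.35 over 20 genes, with 0.63 and 0.06. Their member Wfdc21 was called. On log2(TPM + 1) the medians of the mature neutrophil and secondary granule lists were 0.14 and 0.18. The first was 0.16 without MI-E 3, and the second was 0.88 with insert length as a covariate. Ifitm6, a membrane protein of marrow myeloid cells, was at 472, 405 and 354 CPM in Sham, 1604, 1685 and 1449.7 in MI, 1365, 438 and 306 in Sham-E and 1011, 1098 and 815 in MI-E. Sham-E 1 was above all MI-E libraries, and the effect of 1.21 ± 0.30 missed the threshold (edgeR adjusted p = 0.0807).

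Bone matrix genes were higher in Sham than in the other groups, with no passing averaged effect. Col1a1, the main collagen of bone, was at 43.6, 42.4 and 84.1 CPM in Sham, 8.10, 6.15 and 12.5 in MI, 5.92, 14.3 and 27.8 in Sham-E and 10.1, 3.86 and 10.2 in MI-E. Bglap, which encodes osteocalcin of osteoblasts, was at 2.77, 2.71 and 5.04 in Sham, 0.294, 0.248 and 0.395 in MI, 0.13, 0.388 and 0.578 in Sham-E and 0.338, 0.0477 and 0.091 in MI-E. Only the Sham group was clearly high in both. Their averaged effects were -1.83 ± 0.39 and -2.30 ± 0.46 (edgeR adjusted p = 0.0701 and 0.0616). The osteoblast list had a median of -0.45 over 17 genes, with -1.06 without EMPA and -0.02 under it. Its averaged median was -0.69 without Sham 3, -0.28 without MI 2, -0.22 without Sham-E 3 and -1.44 with insert length as a covariate, and the part of bone content in other results was not tested.

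**Figure D5:**
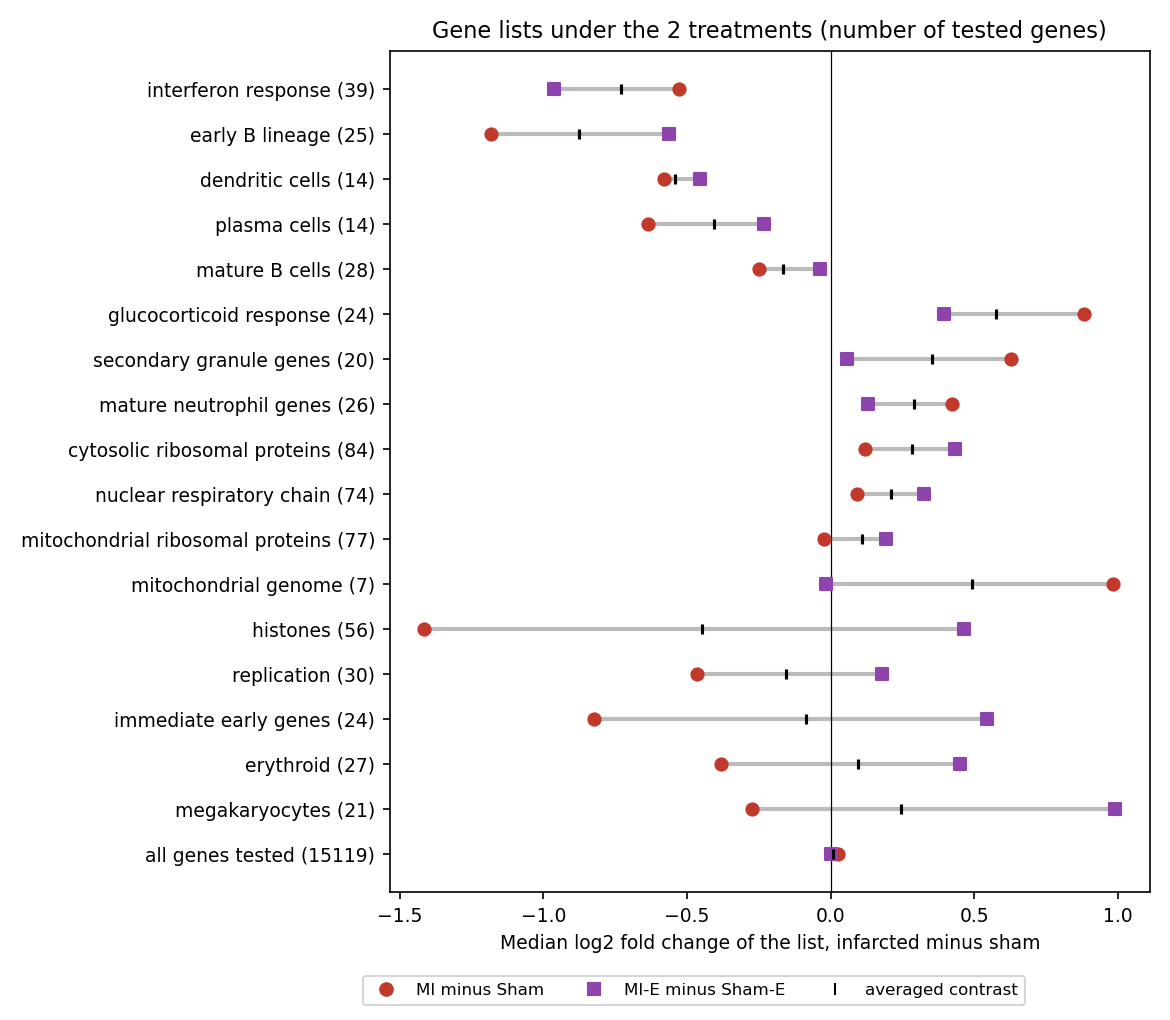
Median log2 fold change of 17 gene lists and of all tested genes for MI minus Sham (circles), MI-E minus Sham-E (squares) and the averaged contrast (ticks); numbers of tested genes stand in parentheses. Interferon, B-lineage and dendritic lists are below 0 in both treatments, glucocorticoid, mature neutrophil, secondary granule, cytosolic ribosomal and respiratory lists above 0 in both, and histone, replication, immediate early, erythroid and megakaryocyte lists lie on opposite sides.

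Several lists had medians of opposite sign in the 2 treatments, which the average over treatments hides. Replication genes had -0.46 without EMPA and 0.18 under it, with 24 of 30 negative in the first and positive in the second. Of all 15119 tested genes, 3290 had this pattern. Immediate early genes, which also answer to handling, had -0.82 and 0.54. Erythroid genes had -0.38 and 0.45, and their averaged median of 0.09 turned to -0.16 without Sham-E 1, -0.09 without MI 3, -0.03 without MI-E 4 and -1.20 with insert length as a covariate. Megakaryocyte genes had -0.27 and 0.99, and their levels did not overlap under EMPA. Other positive values under EMPA varied with 1 library. Replication levels were 6.50 in Sham-E 1, 6.96 and 7.03 in the other Sham-E libraries, and 6.93, 6.85 and 7.19 in MI-E. Erythroid levels were 6.52 in Sham-E 1, 8.61 and 9.48 in the others, and 8.77, 8.90 and 9.52 in MI-E. Immediate early levels were 6.87 in MI-E 3, 5.56 and 5.70 in the other MI-E libraries, and 5.47, 5.81 and 5.35 in Sham-E. Genes of the mitochondrial genome had 0.98 without EMPA and a median near 0, -0.02, under it, over 7 genes. Mitochondrial counts made up 2.74% ± 0.733 in MI and 1.53% ± 0.289 to 1.61% ± 0.251 in the other groups (SD, n = 3). The share of mitochondrial counts differed by 0.558 percentage points between infarcted and sham libraries on average, which did not pass a two-sided exact permutation test within treatments (p = 0.075, smallest possible 0.005, n = 3 per group).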

How the data were processed

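Bone marrow RNA came from a miRNeasy extraction (labels' protocols). Per the submitters' processing notes, the tools were CASAVA 1.8, STAR 2.4.0j and RSEM on build mm10. Strandedness is not given in the sources used here. The authors deposited expected counts per gene and TPM, a length-scaled unit with 1 total for all libraries, for 53801 genes and 12 columns. Each column is named by group and number. Sham-E and MI columns matched single samples, Sham and MI-E columns their group alone.

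Expected counts were rounded. Genes passing filterByExpr (15119) were fitted in edgeR 4.0.16 (R 4.3.3) with TMM factors (0.941 to 1.06), 4 group means, robust dispersions and 8 residual degrees of freedom. A standard error is the size of the log2 fold change divided by the root of its F statistic. CPM are counts over TMM-scaled library sizes, and log2 CPM adds a prior count of 2. Lengths, GC content and exon overlap came from GENCODE M21 on mm10 (53706 genes). Insert lengths were recovered from the ratio of counts to TPM. On simulated counts of 14870 genes the averaged test recovered 78% of genes changed by 1 and 99% of those changed by 2 on the log2 scale, with 12 unchanged genes called. The self-test drew 200 changed genes. It drew each gene independently and without shifts of whole libraries, so its rates need not hold for the real libraries.

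The comparison, its members, the 41 gene lists and the alternatives were chosen with earlier results of these data known. Named genes were, among shared genes whose mean log2 CPM reached 1, the 12 in each direction with the largest fold change and the 8 with the smallest p, up to 4 members of each list with the smallest p, 4 in each direction with the smallest interaction p, and 12 genes always read. Gm, Rik, clone-named and receptor-segment genes were left out. Genes of this rule without a value in the text are not reported here. Alternatives were DESeq2 1.42.0 with its size factors, limma 3.58.1 (voom, and trend on log2(TPM + 1) for a mean TPM of at least 1), 2 filters on low counts, each library left out, a replicate block, insert length as a covariate, 14 abundant genes left out, an additive model and 2-group fits. Chosen after seeing the data were GC and length offsets, leaving out Sham-E 1 with MI 2, the promoters shown and the motif GAAANNGAA.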

Additional observations from a re-analysis of the deposited data

Results flagged for a closer look

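B430305J03Rik differed between the treatments in its response to infarction by an interaction of 7.39 on the log2 scale (edgeR adjusted p = 0.0072). It had 9.85, 8.21 and 7.19 CPM in Sham, 0, 0.149 and 0 in MI, 7.74, 3.42 and 4.58 in Sham-E and 4.44, 5.72 and 6.32 in MI-E. The MI group held 3 counts against 612 in Sham, a ratio of 0.00557 with an exact 95% interval of 0.00115 to 0.0164 that covers counting error only. The fitted size of the interaction depends on the prior count at such counts. All of its exon bases overlap Rap2b, so which gene its reads belong to is uncertain.

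The level of 56 histone genes differed by -1.38 for MI minus Sham, with every MI library below every Sham library. It differed by 0.46 for MI-E minus Sham-E, with every MI-E library above every Sham-E library. Levels were 1.13, 1.05 and 1.72 in Sham, 0.20, -0.30 and -0.14 in MI, 0.66, 0.85 and 0.94 in Sham-E and 1.01, 1.62 and 1.20 in MI-E. The difference between these effects was not tested for the list. Of the 56 genes, 45 were negative without EMPA and positive under it, beside 3290 of all 15119 tested genes. Hist1h2bg had effects of -2.48 and 0.01, and Hist1h1d had -1.84 and 0.37 (unadjusted interaction p in edgeR = 0.00208 and 0.000193).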

How the results depend on the processing

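For averaged calls (43; 21 higher, 22 lower; 32 shared) the alternatives gave, in the same order, 113 (56, 57; 56) with no filter on low counts, 1132 (589, 543; 329) with DESeq2, 302 (279 lower; 164) with limma on log2(TPM + 1), 10 (4, 6; 9) with the additive model and 3095 (1625, 1470; 2351) without both Sham-E 1 and MI 2. Both the replicate block and insert length as a covariate gave 0 (0, 0; 0), with 3044 and 2157 genes at an unadjusted p under 0.05 in edgeR. Leaving out 1 library each time gave 0 to 1616 calls, 0 to 846 higher, 0 to 770 lower and 0 to 1091 shared. MI against Sham (63) gave 156 with no filter, 1066 with DESeq2, 276 on log2(TPM + 1), 1 with the replicate block, 0 with insert length as a covariate (1811 at an unadjusted p under 0.05), 344 in a fit to its 6 libraries, 1958 without both libraries, and 1 to 1224 without 1 library. MI-E against Sham-E (0) gave 212 with DESeq2, 675 without both libraries, 0 in a fit to its 6 libraries and 0 to 117 without 1 library. The interaction (1) gave 167 with DESeq2, 18 on log2(TPM + 1), 0 with limma-voom, the replicate block and insert length (2070, 1042 and 1686 at an unadjusted p under 0.05), and 1 to 150 without 1 library, the most without MI 1. Fewer samples or residual degrees of freedom are part of some of these fits; beyond that the cause was not tested.

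Other size factors, the stricter filter, abundant genes left out and the GC and length offsets gave 42 to 48 averaged calls, and limma-voom 36. All 32 shared genes kept their sign in every alternative that fitted them, 30 of them on log2(TPM + 1), and DESeq2 called all 32. Their rule of no overlap largely set these signs in advance, so the kept signs are no further evidence. The labels name no pairing of libraries by column number. Deviations from the group mean correlated at -0.003 on average over 13 pairs with the same number (4 over 0.1). Over 41 other pairs the mean was 0.001 (6 over 0.1). These correlations cannot show whether libraries were paired, so the replicate block, under which no gene was called, is not set aside by them. At 21175087 to 24606783 counts a library, 1 CPM is few reads, and genes near it are imprecise.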
